A study of Mus musculus with 15 samples.

Results

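The genes described here are 9 genes of mast cells and basophils, out of 22797 genes counted in RNA-seq libraries of mouse innate lymphoid cells (ILCs). They are the protease genes Mcpt1, Mcpt2, Mcpt4, Cma1, Mcpt8 and Cpa3, the genes of the alpha and beta chains of the high-affinity IgE receptor, Fcer1a and Ms4a2, and the transcription factor gene Gata2. They were chosen by measured values: their read counts were higher in group 3 ILC (ILC3) libraries than in group 2 ILC (ILC2) libraries. For that reason their levels in the 2 cell types are given below as a description, with no test. All 9 were matched by gene identifier, and all 9 passed the filter on low counts, for which their ILC3 counts alone were enough.

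The libraries came from the small intestine of female mice, killed at zeitgeber time (ZT, hours after lights on) 4, 10, 16 or 23. Cells of 6 mice per time were pooled and sorted by flow cytometry as ILC3 or ILC2. No strain, genotype, age, treatment or sort gate is given in the sources used here. The 8 ILC3 libraries were 2 each at ZT4, ZT10, ZT16 and ZT23. The 7 ILC2 libraries were 2 each at ZT4, ZT10 and ZT23 and 1 at ZT16. By the labels every ILC3 library belongs to batch 2 and every ILC2 library to batch 1, and a difference between the cell types cannot be told apart from one between these batches. Total counts ran between 5903163 and 24794403 reads in ILC3 libraries and between 4016298 and 18538315 reads in ILC2 libraries.

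Mast cells and basophils are granulocytes that carry IgE on the receptor FcεRI and release stored proteases and histamine when it is crosslinked. Mucosal mast cells of the mouse intestine, which lie in and under the epithelium, store the chymases encoded by Mcpt1 and Mcpt2. Connective tissue mast cells store the chymases encoded by Mcpt4 and Cma1 together with carboxypeptidase A3, encoded by Cpa3, and mouse basophils store the protease encoded by Mcpt8. GATA2 is a transcription factor that both lineages need, and GATA factors bind DNA at the letters GATA.

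The labels were checked against the summed level of 7 ILC2 markers (among them Gata3 and Il1rl1), which was 84.2 to 118 CPM (counts per 1000000 reads, with library sizes scaled between libraries) in ILC3 libraries and 1395 to 2821 CPM in ILC2 libraries. Markers of other cells were present too. The sum of 6 plasma cell markers was 569 to 4525 CPM in ILC3 libraries and 19398 to 195574 CPM in ILC2 libraries, that of 7 T cell markers 326 to 2700 CPM in ILC3 libraries and 456 to 773 CPM in ILC2 libraries, and that of 8 epithelial markers 359 to 6197 CPM in ILC3 libraries and 227 to 1120 CPM in ILC2 libraries. Of 12 mast cell markers, most of them the members themselves, 11 averaged at least 1 CPM in ILC3 libraries and 8 in ILC2 libraries, with sums of 1607 to 3826 CPM in ILC3 libraries and 154 to 647 CPM in ILC2 libraries. These sums include Kit, which ILC3 also express and which averaged 758 CPM in ILC3 libraries and 160 CPM in ILC2 libraries. The ILC2 library with the lowest sum, the first at ZT4, had 1.87 CPM of Mcpt1, 0.17 CPM of Mcpt2 and 1.53 CPM of Cpa3. Of 6 basophil markers, 4 of them members, 4 averaged at least 1 CPM in ILC3 libraries and 2 in ILC2 libraries, with sums of 58.3 to 165 CPM in ILC3 libraries and 0 to 17.3 CPM in ILC2 libraries. The 4 at that level in ILC3 libraries were the members, which were chosen for higher counts there. In ILC3 libraries Gata2, which mast cells share, averaged 55.6 CPM, and Cd200r3, which is not a member, averaged 0.622 CPM. In these lists the tryptase gene Tpsab1 had 1 read and the basophil protease gene Prss34 had 0 reads over all 15 libraries. The eosinophil peroxidase gene Epx and the neutrophil granule gene Camp also had at most 1 read.

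The sequences just before and around the start of these genes are shown for 5 members: the chymase pair Mcpt1 and Mcpt4, whose starts resemble each other, Cpa3 and Ms4a2, which varied together over the ILC3 libraries, and the basophil protease gene Mcpt8, in which the searched letters were not found. Each is 300 bases, 250 before to 50 after a start that the RefSeq promoter table gives for the gene (GRCm38.p6), written 5′ to 3′ on the strand of the gene, with capitals marking AGATAA or TGATAA on either strand (TTATCT or TTATCA when read on the other strand).
Mcpt1 (chr14:56017714-56018013, plus strand): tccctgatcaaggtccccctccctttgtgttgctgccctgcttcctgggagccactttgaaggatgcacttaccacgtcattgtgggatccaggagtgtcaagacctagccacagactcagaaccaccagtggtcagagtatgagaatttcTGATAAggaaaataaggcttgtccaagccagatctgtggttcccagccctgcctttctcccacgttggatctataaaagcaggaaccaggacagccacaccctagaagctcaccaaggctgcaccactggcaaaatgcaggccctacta
Mcpt4 (chr14:56062261-56062560, minus strand): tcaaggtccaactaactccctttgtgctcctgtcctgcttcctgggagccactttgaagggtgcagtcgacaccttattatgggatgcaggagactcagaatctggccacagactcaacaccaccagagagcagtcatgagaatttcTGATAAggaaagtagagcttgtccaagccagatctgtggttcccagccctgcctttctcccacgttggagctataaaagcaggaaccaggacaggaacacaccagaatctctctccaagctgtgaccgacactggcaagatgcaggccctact
Cpa3 (chr3:20242132-20242431, minus strand): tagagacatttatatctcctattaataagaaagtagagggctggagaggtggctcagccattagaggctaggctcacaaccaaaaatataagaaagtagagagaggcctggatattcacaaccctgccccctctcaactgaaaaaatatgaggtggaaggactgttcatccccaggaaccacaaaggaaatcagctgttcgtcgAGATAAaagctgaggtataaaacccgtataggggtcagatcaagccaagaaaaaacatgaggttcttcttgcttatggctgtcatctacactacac
Ms4a2 (chr19:11623670-11623969, minus strand): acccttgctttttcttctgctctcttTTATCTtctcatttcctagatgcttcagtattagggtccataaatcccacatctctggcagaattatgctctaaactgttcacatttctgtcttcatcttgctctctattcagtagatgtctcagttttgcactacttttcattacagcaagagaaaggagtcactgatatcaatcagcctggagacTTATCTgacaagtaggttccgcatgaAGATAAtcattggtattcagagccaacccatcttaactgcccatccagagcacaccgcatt
Mcpt8 (chr14:56085148-56085447, minus strand): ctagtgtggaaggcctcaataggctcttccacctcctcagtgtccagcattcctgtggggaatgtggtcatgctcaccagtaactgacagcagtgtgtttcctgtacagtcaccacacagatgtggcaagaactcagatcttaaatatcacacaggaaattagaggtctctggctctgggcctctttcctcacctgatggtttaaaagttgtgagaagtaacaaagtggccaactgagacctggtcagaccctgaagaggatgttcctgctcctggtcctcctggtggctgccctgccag

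The start of the table is the outer edge of the gene span given below for Mcpt1 and Mcpt4, but it lies 28 bases inside that span for Cpa3, 71 bases for Ms4a2 and 302 bases for Mcpt8, so that the window of Mcpt8 falls wholly within its span. Distances are counted from the start of the table. The match stood 99 bases before the start of Mcpt1 and 103 bases before that of Mcpt4, with the same letters TGATAA. Over the whole window the Mcpt1 and Mcpt4 starts were 80.6% identical in a global alignment, whereas the other 20 pairs compared, Gata2 left out, were 44.1 to 49% identical. Cpa3 had AGATAA 46 bases before its start, and Ms4a2 had 3 matches, 224, 37 and 11 bases before its start, of which the last 2 lie inside the gene span. Fcer1a, the other IgE receptor chain gene, had 1 match, 92 bases before its start. No match lay in the windows of Mcpt8, Cma1 or Gata2, which says only that these letters are not in those 300 bases and, for Mcpt8, nothing of the bases before its span. RefSeq held 9 windows for 8 of the 9 members, with 2 for Gata2. Of these 9 windows 5 (55.6%) held a match, against 6115 of all 32851 promoter windows of the same length (18.6%), a description of the sequence with no bearing on whether a factor was bound.

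Mcpt1 and Mcpt2, the mucosal mast cell chymase genes, had the highest levels of the 9 genes in ILC3 libraries. Mcpt1 (chr14:56017964-56020391) had 300 and 895 CPM at ZT4, 671 and 681 CPM at ZT10, 1287 and 662 CPM at ZT16 and 1723 and 940 CPM at ZT23 in ILC3 libraries. In ILC2 libraries Mcpt1 had 1.87 and 81.6 CPM at ZT4, 50.2 and 8.07 CPM at ZT10, 282 CPM at ZT16 and 142 and 50.7 CPM at ZT23. The lowest ILC3 library, the first at ZT4, stood only just above the highest ILC2 library, the one at ZT16, and on a fold scale ILC2 libraries differed among themselves more than ILC3 libraries did. Mcpt1 averaged 895 ± 438 CPM in ILC3 libraries (SD, n = 8) and 88.1 ± 97.7 CPM in ILC2 libraries (SD, n = 7).

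Mcpt2 (chr14:56021584-56044635) ran in nearly the same order of libraries at a lower level. It had 154 and 451 CPM at ZT4, 320 and 364 CPM at ZT10, 669 and 337 CPM at ZT16 and 931 and 580 CPM at ZT23 in ILC3 libraries. In ILC2 libraries Mcpt2 had 0.17 and 34.1 CPM at ZT4, 21.9 and 1.59 CPM at ZT10, 115 CPM at ZT16 and 65.9 and 24.8 CPM at ZT23. Here again the groups did not overlap, with 154 CPM as the lowest ILC3 value and 115 CPM as the highest ILC2 value.

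The connective tissue mast cell chymase genes were far lower and differed from each other in ILC2. Mcpt4 (chr14:56059744-56062310) had 20.2 to 44.5 CPM in ILC3 libraries, with a median of 25.4 CPM, and 0 to 3.23 CPM in ILC2 libraries, with a median of 1.79 CPM and 2 libraries at 0. Cma1 (chr14:55941451-55944675) had 21.4 and 7.48 CPM at ZT4, 10.4 and 17.2 CPM at ZT10, 5.29 and 6.20 CPM at ZT16 and 10.9 and 6.17 CPM at ZT23 in ILC3 libraries. No read of Cma1 was counted in any of the 7 ILC2 libraries, against 1567 reads in the ILC3 libraries, which is at least 261.7-fold higher in ILC3 when 3 reads over the ILC2 group are taken as the limit that a count of 0 allows (counting error only).

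Mcpt8 (chr14:56082163-56085499), the basophil protease gene, was also all but missing in ILC2. It had 30.5 and 23.8 CPM at ZT4, 18.7 and 21.7 CPM at ZT10, 17.3 and 16.5 CPM at ZT16 and 45.3 and 11.2 CPM at ZT23 in ILC3 libraries. In ILC2 libraries 2 reads were counted, both in the second ZT23 library (0.111 CPM), and 6 of the 7 libraries were at 0. The summed and scaled counts, 3643 reads in ILC3 and 2 reads in ILC2, had a ratio of 912.7 (95% exact binomial interval 252.5 to 7539, counting error only). In bulk libraries such as these, fewer cells of a type and less RNA per cell cannot be told apart.

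Cpa3 (chr3:20215616-20242209), whose product is shared by mast cells and basophils, varied least of the 6 protease genes among ILC3 libraries, with a coefficient of variation of 27.1%. It had 122 and 82.7 CPM at ZT4, 121 and 107 CPM at ZT10, 129 and 84.3 CPM at ZT16 and 134 and 53.4 CPM at ZT23 in ILC3 libraries. In ILC2 libraries Cpa3 had 1.53 and 3.57 CPM at ZT4, 3.48 and 3.46 CPM at ZT10, 19.2 CPM at ZT16 and 6.52 and 1.77 CPM at ZT23. Among ILC2 libraries the single ZT16 library stood well above the others. Cpa3 averaged 104 ± 28.3 CPM in ILC3 libraries (SD, n = 8) and 5.65 ± 6.20 CPM in ILC2 libraries (SD, n = 7).

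The IgE receptor chain genes were low but present in every ILC3 library. Fcer1a (chr1:173221269-173227232), the IgE-binding chain, had 16.0 and 23.8 CPM at ZT4, 19.4 and 18.8 CPM at ZT10, 16.9 and 11.9 CPM at ZT16 and 27.9 and 13.7 CPM at ZT23 in ILC3 libraries, and 0 to 5.07 CPM in ILC2 libraries. Ms4a2 (chr19:11615517-11623790), the signal-amplifying beta chain, had 4.68 to 9.76 CPM in ILC3 libraries and 0 to 0.497 CPM in ILC2 libraries, where 4 of the 7 were at 0. Fewer reads lie behind Ms4a2 than behind any other member in ILC3, with 1169 in all, against 18 in ILC2.

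Gata2 (chr6:88193891-88207032) had 44.5 and 40.5 CPM at ZT4, 68.7 and 59.8 CPM at ZT10, 76.7 and 46.0 CPM at ZT16 and 80.6 and 28.1 CPM at ZT23 in ILC3 libraries. In ILC2 libraries it was at 0 in both ZT4 libraries, at 0.994 and 0.933 CPM at ZT10, at 13.5 CPM at ZT16 and at 3.38 and 0.111 CPM at ZT23. As for Cpa3, the ILC2 library that stood apart was the one at ZT16.

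For all 9 genes every ILC3 library lay above every ILC2 library, as was the case for 999 of the 15339 genes tested (6.51%). Between the cell types 27.1% of all genes tested passed an adjusted p of 0.05 and 38.3% an unadjusted one (edgeR). Since the 9 genes were chosen on this contrast, nothing is read from their count. Scaled by exon length, the ILC3 levels ran in the order Mcpt1 (870 ± 427 CPM per kilobase), Mcpt2 (490 ± 251), Cpa3 (71.8 ± 19.5), Mcpt4 (28.2 ± 7.94), Mcpt8 (27.6 ± 12.7), Fcer1a (18.1 ± 5.12), Gata2 (17.2 ± 5.78), Cma1 (9.87 ± 5.41) and Ms4a2 (7.14 ± 1.70; all CPM per kilobase, SD, n = 8). The ranges of the neighbours Mcpt4 and Mcpt8 (20.4 to 45.0 and 13.3 to 54.0 CPM per kilobase) and of Fcer1a and Gata2 (11.6 to 27.2 and 8.67 to 24.9 CPM per kilobase) overlapped for the most part. Those of Cma1 and Ms4a2 (4.91 to 19.9 and 4.63 to 9.66 CPM per kilobase) overlapped in part, as Cma1 reached higher values. The order within each of these pairs lies within the spread between libraries. The step between Mcpt2 and Cpa3 was the widest, with 159 CPM per kilobase as the lowest Mcpt2 value and 92.5 CPM per kilobase as the highest Cpa3 value.

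**Figure D1:**
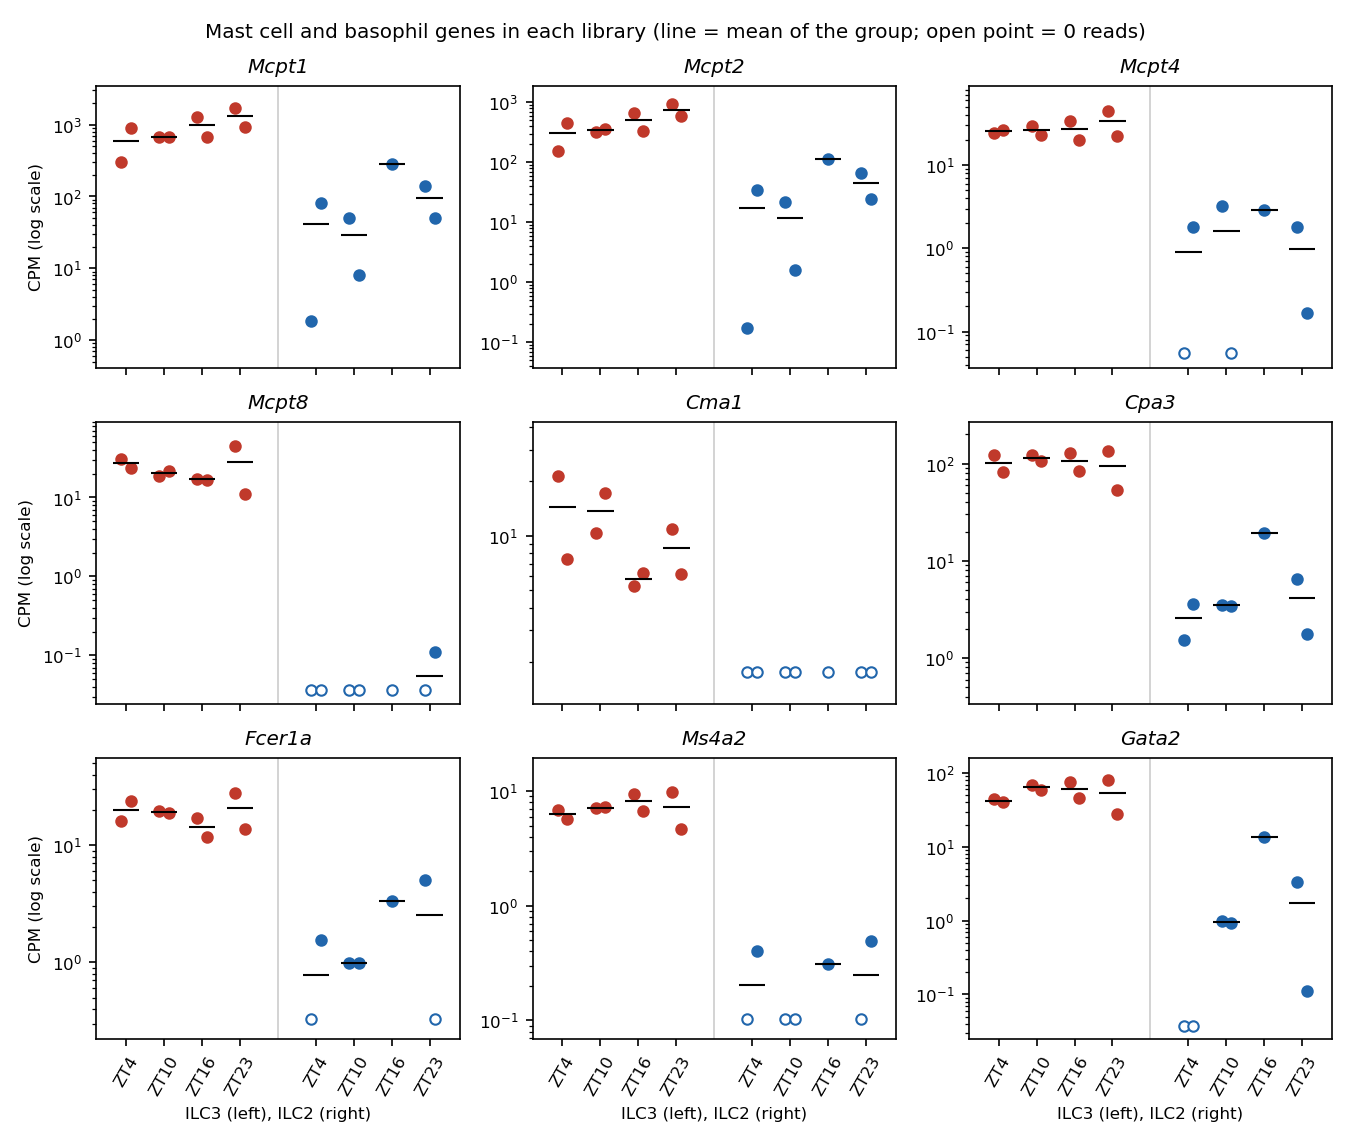
Level of each of the 9 genes (CPM, log scale) in the 8 ILC3 libraries (red) and the 7 ILC2 libraries (blue) by zeitgeber time, 1 point per library, with a line at the group mean and open points for libraries with 0 reads. In ILC3 libraries each gene was present at all times, and Cma1 had 0 reads in all 7 ILC2 libraries while Mcpt1 reached 282 CPM in 1 of them.

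Close copies could share reads, so the transcripts of the chymase genes were compared. No stretch of 50 bases of the Mcpt1, Mcpt2 or Mcpt8 transcripts was found in the transcript of another gene of GENCODE vM21. Over its length Mcpt1 was 70.9% identical to Mcpt2, 72.9% to Mcpt4 and 75.1% to Cma2. Only exact stretches of 50 bases were searched, so reads placed with mismatches are not covered. In Mcpt4 5.48% of such stretches also stood in Cma2 or Mcpt9, and in Cma1 5.38% also stood in the gene Gm48934. Shared stretches were much more common in 2 genes that are not among the 9: 46.5% of those of Cma2 and 18.8% of those of Mcpt9 also stood in Mcpt4 or in each other. The values of Mcpt4, Cma1, Cma2 and Mcpt9 are uncertain to that extent, since the handling of reads with more than 1 match is not given in the sources used here.

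How the genes varied among the ILC3 libraries was not used to list them. Mcpt1 and Mcpt2 moved as a pair. Their levels, as log2(CPM + 0.5), had a Pearson correlation of 0.99 over the 8 ILC3 libraries (Spearman 0.98, and Pearson 0.96 without the 2 libraries farthest from the median of Mcpt1). The exact permutation test, two-sided, gave p = 4.96e-05 for Pearson and 0.000397 for Spearman, and the values adjusted over the 36 pairs of members were 0.00179 and 0.0143. Within a library there were 1.62 to 2.10 reads of Mcpt1 per read of Mcpt2 in ILC3, a coefficient of variation of 7.22% over libraries whose Mcpt1 level differed 5.74-fold. In the ILC2 libraries this ratio was 2.04 to 2.46 in most libraries, 5.07 in the second ZT10 library (147 reads per 29 reads) and 11 in the first ZT4 library (11 reads per 1 read, 95% exact binomial interval 1.60 to 473).

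Gata2, Ms4a2 and Cpa3 formed a second set. Ms4a2 and Gata2 had a Pearson correlation of 0.94 over the 8 ILC3 libraries (Spearman 0.95, and 0.85 for Pearson without the 2 farthest libraries), with exact permutation p of 0.000149 and 0.00114 and adjusted values of 0.00268 and 0.0205. Cpa3 had a Pearson correlation of 0.89 with Ms4a2 and of 0.89 with Gata2, with adjusted exact permutation p of 0.00536 and 0.0321. Both relations of Cpa3 missed the threshold of 0.05 by Spearman, with adjusted p of 0.0548 and 0.0964, and their Pearson correlations were 0.67 and 0.67 without the 2 libraries farthest from the Cpa3 median. These 4 pairs were the pairs with an adjusted p under 0.05 by Pearson among the 36 compared. How often pairs of other genes reach such correlations was not computed. Cpa3 had higher ones with genes that are not members, such as 0.97 with Cd84 and 0.95 with Ube2h, so the set is not particular to these genes. The 8 libraries share 4 times and differ in depth.

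The chymase pair did not follow this set. Mcpt1 and Cpa3 had a Pearson correlation of 0.02 over the 8 ILC3 libraries (Spearman 0.24, exact permutation p of 0.969 and 0.582), and Mcpt1 and Gata2 one of 0.38 (exact permutation p = 0.359). Counted within a library, which needs no scaling, there were 2.46 reads of Mcpt1 per read of Cpa3 in the first ZT4 ILC3 library and 17.6 in the second ZT23 ILC3 library, a 7.17-fold range. Reads of Gata2 per read of Cpa3 ran between 0.364 and 0.60 over the same libraries, and reads of Ms4a2 per read of Cpa3 between 0.0563 and 0.0876. The basophil protease gene was intermediate, with 0.134 to 0.337 reads of Mcpt8 per read of Cpa3, and Cma1 had 0.0409 to 0.175. A ratio that differs between libraries shows unequal change of the 2 genes and not which of them changed.

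Ratios of members in the 2 cell types are given side by side, with no test. Summed over the libraries there were 9.07 reads of Mcpt1 per read of Cpa3 in ILC3 and 15.3 in ILC2. The range of the single ILC3 libraries, 2.46 to 17.6, lay within the wider range of the ILC2 libraries, 1.22 to 28.7. For Mcpt8 the summed ratio was 0.218 reads per Cpa3 read in ILC3 libraries (3643 per 16715 reads) and 0.00429 in ILC2 libraries. For Gata2 the sums gave 0.555 reads per Cpa3 read in ILC3 and 0.487 in ILC2. Most of the ILC2 reads of Gata2, 176 of 227, came from the ZT16 library, and without it the ILC2 ratio was 0.236 (51 per 216 reads).

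**Figure D2:**
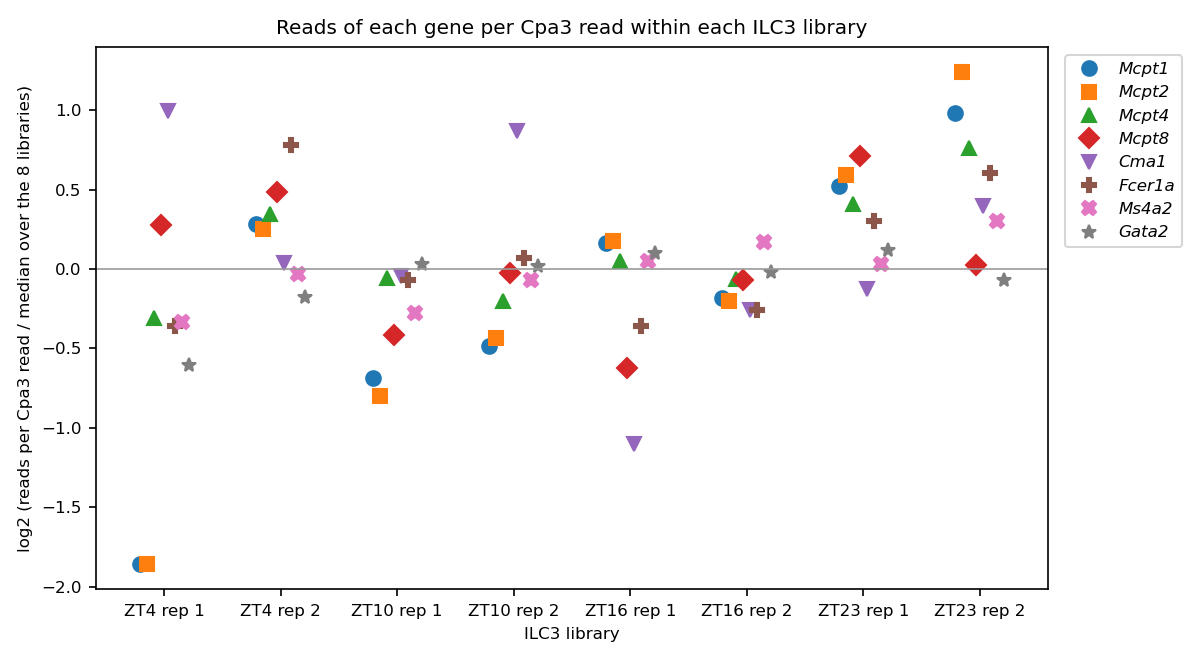
Reads of each gene per read of Cpa3 in each ILC3 library, divided by the median over the 8 libraries (log2 axis, 1 point per gene and library). Mcpt1 and Mcpt2 lie together and reach their lowest value in the first ZT4 library (2.46 Mcpt1 reads per Cpa3 read) and their highest in the second ZT23 library (17.6), while Gata2 and Ms4a2 stay closer to 0.

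Markers of other cells also differed between these libraries, in both directions. The first ZT4 ILC3 library, with the lowest Mcpt1 and Mcpt2 levels, also had the lowest summed T cell markers (326 CPM), cytotoxic lymphocyte markers (622 CPM), epithelial markers (359 CPM) and erythroid and platelet markers (29.4 CPM) of the ILC3 libraries, and the lowest depth (5903163 reads). The same library had the highest sums of macrophage and monocyte markers (2882 CPM), dendritic cell markers (2524 CPM), eosinophil markers (69.2 CPM) and neutrophil markers (22.0 CPM), and the lowest of B cell markers (19.0 CPM). The first ZT23 ILC3 library, with the highest Mcpt1 and Mcpt2 levels, had the highest T cell (2700 CPM) and cytotoxic (4479 CPM) sums and the lowest dendritic cell (845 CPM) and eosinophil (27.0 CPM) sums. The second ZT23 ILC3 library, with the lowest Cpa3, Gata2 and Ms4a2, had the highest epithelial (6197 CPM), erythroid and platelet (517 CPM), plasma cell (4525 CPM) and B cell (87.1 CPM) sums. Among ILC2 libraries the first at ZT4 had the lowest Mcpt1 (1.87 CPM), the lowest epithelial (227 CPM) and dendritic cell (821 CPM) sums and the highest macrophage and monocyte (2713 CPM), neutrophil (17.7 CPM) and cytotoxic (713 CPM) sums. The part of these markers in the values above was not tested.

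**Figure D3:**
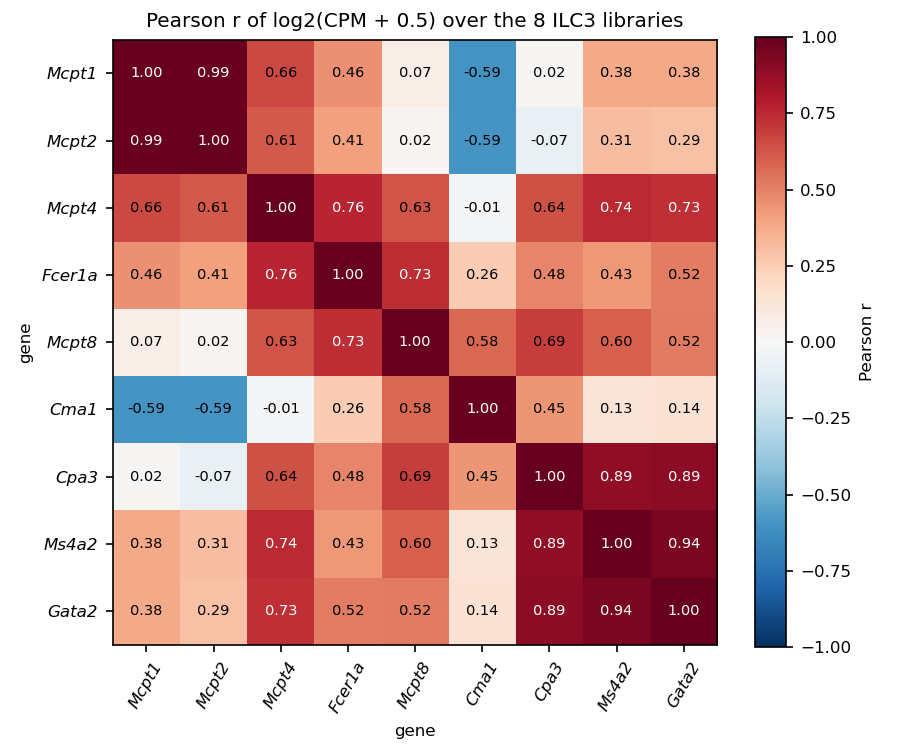
Pearson correlation of log2(CPM + 0.5) for each pair of the 9 genes over the 8 ILC3 libraries (red positive, blue negative). Mcpt1 and Mcpt2 form 1 block (0.99) and Cpa3, Ms4a2 and Gata2 another (0.89 to 0.94), with 0.02 between Mcpt1 and Cpa3.

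Time of day was tested across all genes with edgeR's quasi-likelihood test and Benjamini-Hochberg adjustment, and none of the 9 genes passed an adjusted p of 0.05. Over the 4 times in ILC3, 0 of the 9 members and 0 of 15339 genes (0%) were called. At an unadjusted p under 0.05, 0 members stood beside 669 genes (4.36%). The group means of Mcpt1 in ILC3 were 597 ± 420 CPM at ZT4, 676 ± 7.37 at ZT10, 974 ± 442 at ZT16 and 1332 ± 554 at ZT23 (CPM, SD, n = 2 each). These means stand in increasing order, but the 2 libraries of ZT4, ZT16 and ZT23 lay far apart (at ZT23 1723 and 940 CPM), and the unadjusted p over the times was 0.719 by edgeR. The corresponding value was 0.677 for Mcpt2, 0.956 for Cpa3, 0.866 for Gata2, 0.582 for Mcpt8 and 0.234 for Cma1.

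Single pairs of times gave the same picture in ILC3. ZT23 against ZT10 had a log2 fold change of 0.98 ± 1.12 for Mcpt1 (SE, adjusted p = 0.804 by edgeR) and of 1.14 ± 1.20 for Mcpt2 (adjusted p = 0.779), and 0 of 15339 genes (0%) were called, with 1253 (8.17%) at an unadjusted p under 0.05. ZT16 against ZT4 had a log2 fold change of 0.70 ± 1.11 for Mcpt1 and of −1.32 ± 0.67 for Cma1, whose unadjusted p of 0.0801 was the lowest of the 9 members (adjusted p = 1 by edgeR), and again 0 genes (0%) were called, with 511 (3.33%) at an unadjusted p under 0.05.

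In ILC2 the differences over time rested mostly on the single ZT16 library, the highest for Mcpt1, Mcpt2, Cpa3 and Gata2. Mcpt8, Cma1 and Ms4a2 had too few ILC2 reads to pass the filter on the ILC2 libraries alone, so their course in ILC2 was not open to a test. Over the 4 times in ILC2 edgeR called 0 of the other 6 members and 0 of 15339 genes (0%), with 516 genes (3.36%) at an unadjusted p under 0.05. Gata2 and Cpa3 were the 2 members under that value, with unadjusted p of 0.000836 and 0.00305 (adjusted p of 1 and 1 by edgeR). DESeq2 called both, with adjusted p of 0.00727 and 0.0149, among 24 genes called. Without the ZT16 library the unadjusted p by edgeR was 0.0416 for Gata2 and 0.706 for Cpa3. As that time has 1 ILC2 library, a time of day and that library cannot be told apart. Cell type by time, the test of whether the courses differ, called 0 of 15339 genes (0%), with 307 (2%) at an unadjusted p under 0.05, among them Gata2 (0.00773) and Cpa3 (0.0276). Without the ZT16 ILC2 library the unadjusted p of this test by edgeR was 0.0891 for Gata2 and 0.72 for Cpa3.

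The chymase members Cma1, Mcpt1, Mcpt2, Mcpt4 and Mcpt8 lie on chromosome 14 in a cluster of serine protease genes whose other genes were not used for the list. Within 200 kb of the cluster there were 10 other serine protease genes, of which 6 were tested. Gzmb and Gzmc share no 50-base stretch with a member, and both were higher in ILC3. Gzmb was well counted in both cell types, with 114026 reads in ILC3 libraries and 6559 in ILC2 libraries. Gzmc had 1903 reads in ILC3 libraries but only 102 in ILC2 libraries. The granzyme gene Gzmb, a cytotoxic lymphocyte protease, had 674 ± 252 CPM in ILC3 libraries (SD, n = 8) and 84.0 ± 40.8 CPM in ILC2 libraries (SD, n = 7), with an adjusted p of 0.000111 by edgeR. It is also 1 of the 6 cytotoxic lymphocyte markers, whose sum was 622 to 4479 CPM in ILC3 libraries and 265 to 713 CPM in ILC2 libraries, and the part of such cells was not tested. Gzmc averaged 12.0 ± 2.82 CPM in ILC3 libraries and 1.12 ± 0.777 CPM in ILC2 libraries, with an adjusted p of 0.00037 by edgeR, and 4.14% of its 50-base stretches also stood in other granzyme genes. Ctsg (169 reads in ILC3 libraries and 1 in ILC2 libraries) and Gzme (48 reads in ILC3 libraries and 0 in ILC2 libraries) passed the filter through their ILC3 counts, so a call in the other direction was not open to them. Mcpt9 and Cma2 share stretches with Mcpt4 or each other, and the call of Cma2 was lost with the replicate block (edgeR adjusted p = 0.0582, over alternatives 0.00305 to 0.13). Of the 12 other genes of the window 10 were tested, and 0 were higher and 2 lower in ILC3: the leukotriene B4 receptor gene Ltb4r1 (38.6 ± 12.4 CPM in ILC3 libraries and 92.2 ± 15.2 CPM in ILC2 libraries) and Nynrin (4.15 ± 1.24 CPM in ILC3 libraries and 14.5 ± 6.32 CPM in ILC2 libraries), against 12% of all genes. Genes next to the cluster with a mean of at least 1 CPM that were called in neither direction were Dhrs1, Nop9, Cideb, Adcy4, Ripk3, Khnyn and Sdr39u1.

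Other genes of mast cells and basophils, 70 in 6 lists, were tested between ILC3 and ILC2. Of the 66 that passed the filter 24 were higher and 10 lower in ILC3 (edgeR, adjusted p under 0.05), beside 15.1% and 12% of all genes. The median log2 fold change was 0.27, beside 0.11 over all genes tested. Taken as ratios of summed counts, with 3 reads for a group at 0, the medians were 0.32 and 0.08. Of the 66 genes 59 also passed the filter on the libraries of each cell type alone, and of these 20 were higher and 10 lower, with a median log2 fold change of 0.21. The other 7 (Ctsg, Ltc4s, Cd200r3, Gata1, Cebpe, Il3 and Il9) had few reads in 1 or both cell types.

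Of the 7 other protease genes 5 were tested and called higher in ILC3, but the 2 untested genes, Tpsab1 and Prss34, are near 0 in both cell types, Ctsg was tested through its ILC3 counts alone, and Mcpt9 and Cma2 share stretches with Mcpt4. The tryptase gene Tpsb2 had 622 reads in ILC3 libraries and 23 in ILC2 libraries, a scaled ratio of 13.6 (95% exact binomial interval 8.95 to 21.5, counting error only; edgeR adjusted p = 0.00106). The cathepsin G gene Ctsg, also a neutrophil gene, had 169 reads in ILC3 libraries and 1 in ILC2 libraries, a ratio of 84.7 with an interval of 15 to 3364 (edgeR adjusted p = 0.00289). The tryptase gene Tpsg1 had 191 reads in ILC3 libraries and 39 in ILC2 libraries, a ratio of 2.45 with an interval of 1.73 to 3.56 (edgeR adjusted p = 0.019). Its highest ILC2 library, at 1.82 CPM, stood above its ILC3 median of 0.609 CPM. Reads shared between tryptase genes were not examined. Fitted log2 fold changes of these 3 genes (6.27 for Tpsb2, 6.28 for Ctsg and 4.05 for Tpsg1) depend on how 0 counts are handled in ILC2 groups. The ratios of counts are therefore given beside them. The adjusted p values belong to the fits, not to the ratios, and depend on the 0 counts as well. The chymase-like gene Mcpt9 was at 14.6 ± 8.13 CPM in ILC3 libraries and 2.47 ± 3.02 CPM in ILC2 libraries (edgeR adjusted p = 0.00949), and missed the threshold without the second ZT4 ILC3 library (adjusted p = 0.0598, over alternatives 1.08e-05 to 0.0598). Cma2 was at 8.09 ± 5.36 CPM in ILC3 libraries and 2.83 ± 4.80 CPM in ILC2 libraries, and its call (edgeR adjusted p = 0.0396) held in 8 of the 19 alternatives, with adjusted p of 0.00305 to 0.13.

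Of 16 genes that act with or below the IgE receptor 5 were higher and 1 lower in ILC3, with a median log2 fold change of −0.01, or 0.09 taken as ratios of summed counts. Fcer1g, the common gamma chain that ILCs use with other receptors too, had 407 ± 91.5 CPM in ILC3 libraries and 85.6 ± 22.1 CPM in ILC2 libraries, a log2 fold change of 2.27 ± 0.21 (SE, edgeR adjusted p = 1.03e-05). The inhibitory receptor gene Cd300a and the phospholipase gene Plcg2 were higher in ILC3, with log2 fold changes of 1.78 ± 0.23 and 1.03 ± 0.22 (edgeR adjusted p of 9.86e-05 and 0.00441). Gab2, an adaptor, and Rabgef1 were the other 2, at 0.83 ± 0.23 and 0.60 ± 0.20 on the log2 scale, and Rabgef1 was called in 7 of the 19 alternatives. The adaptor gene Lat, which T cells use as well, was lower, with a log2 fold change of −1.32 ± 0.22 (edgeR adjusted p = 0.000811). The kinase genes Lyn (0.23 ± 0.18) and Syk (−0.07 ± 0.25) did not pass.

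Of 13 granule and mediator genes 6 were higher and 1 lower in ILC3, with a median log2 fold change of 0.54. Of these, 12 passed the filter in each cell type alone, with 5 higher, 1 lower and a median of 0.32. The remaining gene, Ltc4s, had 1202 reads in ILC3 libraries and 22 in ILC2 libraries, so a call in the other direction was not open to it. The leukotriene C4 synthase gene Ltc4s had 8.17 ± 2.68 CPM in ILC3 libraries and 0.384 ± 0.341 CPM in ILC2 libraries (edgeR adjusted p = 0.00045). Cd63, a granule membrane protein gene, had 37.7 ± 17.0 CPM in ILC3 libraries and 4.23 ± 1.05 CPM in ILC2 libraries (edgeR adjusted p = 2.98e-06). The histamine-forming enzyme gene Hdc, the amine transporter gene Slc18a2 and the fusion protein gene Stx11 were also higher, with log2 fold changes of 1.96 ± 0.40, 1.72 ± 0.29 and 1.27 ± 0.21 (SE). Alox5ap was the other, at 0.54 ± 0.16, and was called in 13 of the 19 alternatives. Rab27b, a granule transport gene, was lower at −1.15 ± 0.34 and was called in 15 of the 19 alternatives.

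Of 16 receptor genes 14 were tested, 4 were higher and 4 lower in ILC3, with a median log2 fold change of −0.29. Kit, the stem cell factor receptor gene that mast cells need and that ILC3 also express, had 758 ± 179 CPM in ILC3 libraries and 160 ± 51.7 CPM in ILC2 libraries (log2 fold change 2.22 ± 0.24, edgeR adjusted p = 3.44e-05). Itgae, an integrin gene of intraepithelial cells and mucosal mast cells, had a log2 fold change of 3.90 ± 0.31, and Itga2b, an integrin gene of platelets and mast cells, one of 3.35 ± 0.52 (edgeR adjusted p of 3.57e-06 and 0.000456). Csf2rb was the other higher gene, at 1.10 ± 0.22. The IL-33 receptor gene Il1rl1, which ILC2 and mast cells share, was lower, with 10.4 ± 3.11 CPM in ILC3 libraries and 111 ± 25.1 CPM in ILC2 libraries. Csf2rb2, Itgb7 and Hrh4 were the other lower genes, at −1.08 ± 0.19, −0.83 ± 0.15 and −2.82 ± 0.68 on the log2 scale. The basophil receptor gene Cd200r3 had 107 reads in ILC3 libraries and 11 in ILC2 libraries and did not pass (edgeR adjusted p = 0.124). Mrgprb2, the receptor gene of connective tissue mast cells, was not tested and had 10 reads in ILC3 libraries and 0 in ILC2 libraries.

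Of 10 transcription factor genes 4 were higher and 0 lower in ILC3, with a median log2 fold change of 0.50. Of these, 8 passed the filter in each cell type alone, with 2 higher, 0 lower and a median of 0.46. Gata1 and Cebpe (71 reads in ILC3 libraries and 4 in ILC2 libraries) did not, so a call in the other direction was not open to them. Gata1, which acts with GATA2 in mast cells, had 99 reads in ILC3 libraries and 2 in ILC2 libraries, a scaled ratio of 24.8 (95% exact binomial interval 6.69 to 208, counting error only; edgeR adjusted p = 0.00846). Tal1, a partner of GATA factors, had 433 reads in ILC3 libraries and 30 in ILC2 libraries, a ratio of 7.23 with an interval of 4.99 to 10.9 (edgeR adjusted p = 0.0149). The adjusted p values of Gata1 and Tal1 belong to fitted log2 fold changes of 5.35 and 3.82, not to these ratios. Cebpa and Cebpe, both factors of myeloid cells, had edgeR adjusted p of 0.0317 and 0.0423 and were called in 11 and 5 of the 19 alternatives. Mitf, which mast cells need, had a log2 fold change of 0.49 ± 0.27 and did not pass (edgeR adjusted p = 0.2).

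Of 8 cytokine genes 0 were higher and 4 lower in ILC3, with a median log2 fold change of −1.47. Il4 and Il13, cytokines of ILC2 as well as of mast cells and basophils, had log2 fold changes of −5.16 ± 0.46 and −5.15 ± 0.46 (SE, edgeR adjusted p of 7.86e-06 and 7.97e-06). Csf1 and Osm were lower by smaller amounts, at −1.94 ± 0.20 and −0.99 ± 0.19. The stem cell factor gene Kitl, made by stromal and epithelial cells, had 8.88 ± 11 CPM in ILC3 libraries and 3.45 ± 1.52 CPM in ILC2 libraries and did not pass (edgeR adjusted p = 0.175). Over time 0 of the 66 tested genes of the 6 lists were called by edgeR in ILC3 and 0 in ILC2, with 6 and 5 at an unadjusted p under 0.05, beside 4.36% and 3.36% of all genes.

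**Figure D4:**
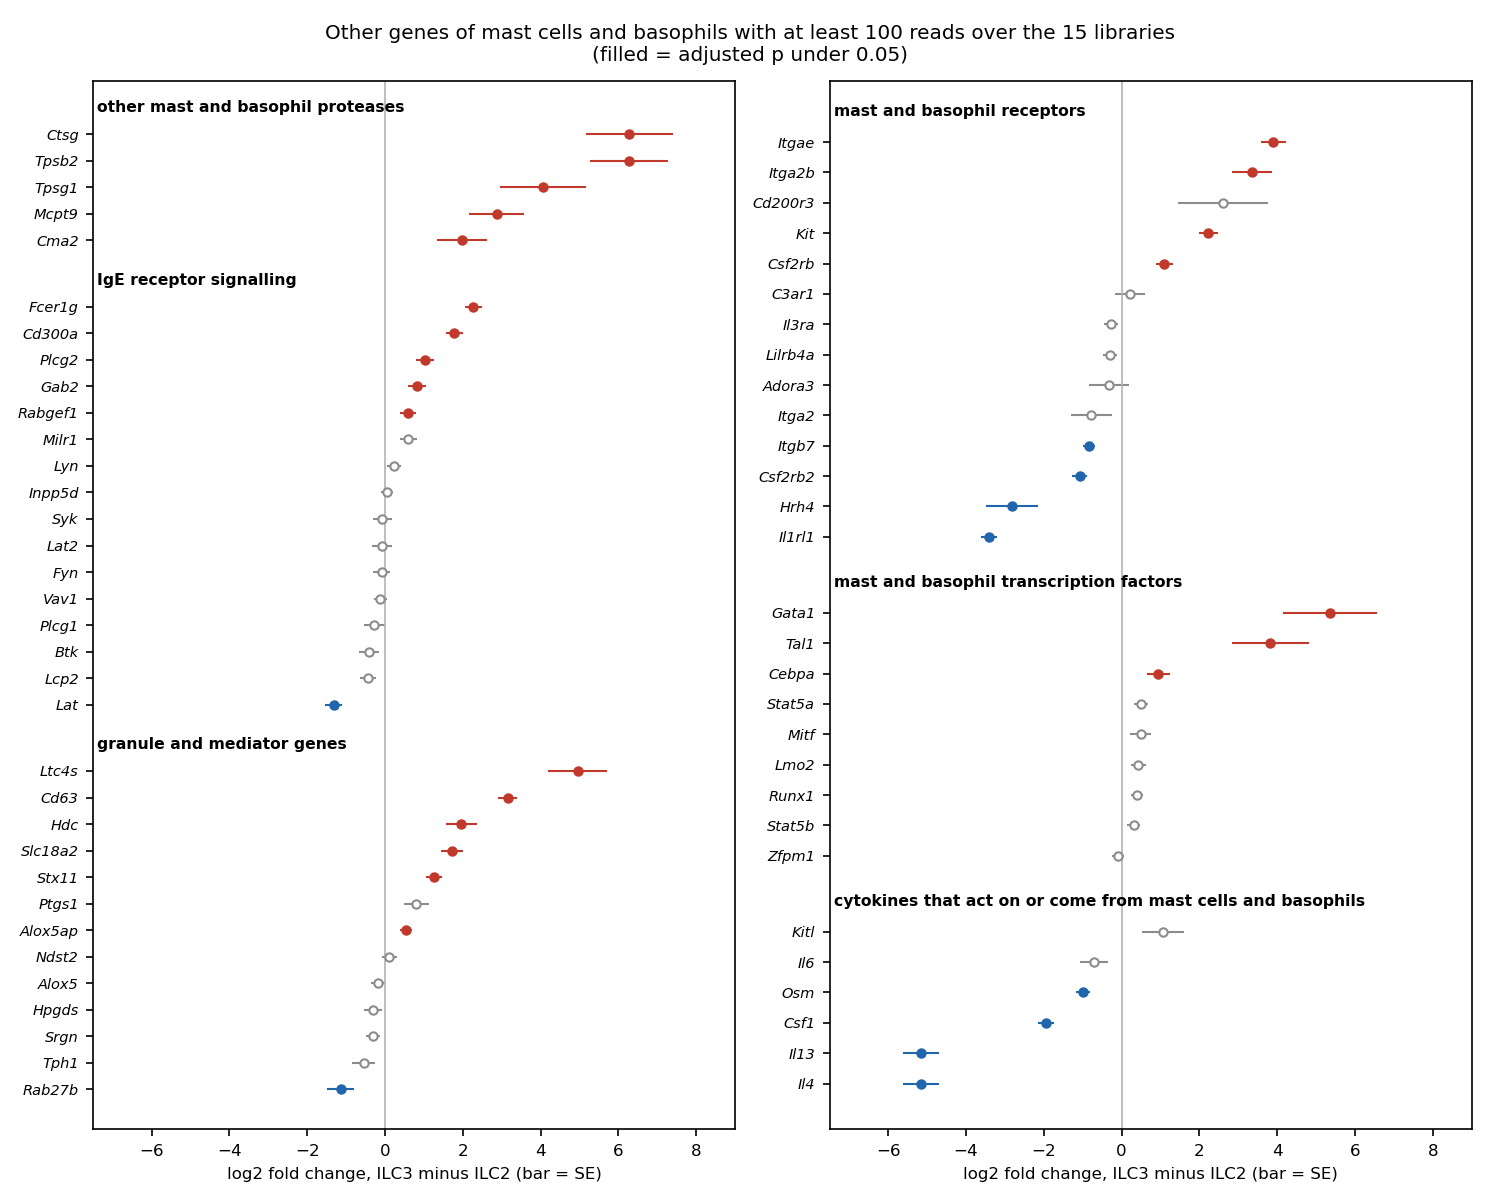
Log2 fold change of ILC3 over ILC2 with its SE for the 63 tested genes of the 6 lists that had at least 100 reads over the 15 libraries, filled where the edgeR adjusted p is under 0.05 (red higher, blue lower in ILC3). Fcer1g (2.27) and Kit (2.22) lie to the right of 0 and Il4 (−5.16) and Il13 (−5.15) to the left, while the fitted values of Tpsb2, Ctsg and Tpsg1 depend on how 0 counts are handled and stand beside count ratios of 13.6, 84.7 and 2.45.

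The genes most like the members over the 8 ILC3 libraries were named by the Pearson correlation of log2(CPM + 0.5), among 10315 genes with a mean of at least 5 CPM, as a description with no test. For Mcpt8 the nearest were Tmem158 (0.97), Parp2 (0.97), Ccm2 (0.90), Rgs2 (0.90), Ctnnbl1 (0.90), Pigl (0.90), Hemk1 (0.90), Mrm1 (0.89), Nkx6-2 (0.89) and Abraxas1 (0.88). For the mean z-score of Mcpt1, Mcpt2 and Cpa3 they were Prnp (0.99), Gnptg (0.96), Bcl7a (0.93), Cracdl (0.93), Ash2l (0.93), Ankrd54 (0.93), Dleu2 (0.90), Lppos (0.89), Rbms2 (0.89) and Ddx31 (0.89). As Mcpt1 and Cpa3 did not vary together, each was also compared alone, a choice made after their values were seen. Nearest to Mcpt1 were Ash2l (0.98), the chymase gene Cma2 (0.97), Tmem216 (0.96), Bcl7a (0.96), Cracdl (0.94), Terf2ip (0.94), Exoc8 (0.94), Rab40c (0.94), Tab1 (0.94) and Prune1 (0.94). Nearest to Cpa3 were Cd84 (0.97), a surface receptor gene of mast cells and other leukocytes, and Itga2b (0.96). After them came Ddb2 (0.96), Ppm1h (0.96), Akirin2 (0.96), Itgb3 (0.96), Msi2 (0.96), the carbonic anhydrase gene Car2 (0.96), Thy1 (0.95) and Ube2h (0.95). Of these, Itga2b averaged 12.0 CPM in ILC3 libraries and 1.29 CPM in ILC2 libraries and Car2 399 CPM in ILC3 libraries and 18.4 CPM in ILC2 libraries. By contrast, Cd84 averaged 90.9 CPM in ILC3 libraries and 119 CPM in ILC2 libraries, and Itgb3 90.6 CPM in ILC3 libraries and 339 CPM in ILC2 libraries. All genes of a library share its depth and its mix of cells.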

How the data were processed

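The deposited values are read counts per Entrez gene for each of 15 libraries. Per the labels' protocols, RNA of FACS-sorted cells was made with the RNeasy Micro kit and 100 ng went into TruSeq libraries of polyA RNA. Per the submitters' processing notes, featureCounts and the genome build mm10 were used. The aligner, the strand setting and the handling of reads with several matches are not given in the sources used here. Gene symbols came from the gene tables for 22718 of 22797 identifiers, and coordinates and promoter sequences from RefSeq (GRCm38.p6, the mm10 assembly).

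From the counts, CPM with TMM scaling and quasi-likelihood fits over 8 group means (cell type and time) were computed with edgeR 4.0.16 in R 4.3.3, for the 15339 genes that passed filterByExpr with a minimum count of 10, with p-values adjusted over all of them by Benjamini-Hochberg. The SE of a log2 fold change was taken from its F statistic. Levels scaled by exon length used the gene lengths of the deposited tables. Intervals of ratios of counts are exact binomial intervals at 95% and cover counting error only. Correlations over 8 ILC3 libraries used all 40320 permutations. Library size alone, DESeq2 1.42.0, no filter, a replicate block, fits of 1 cell type and leaving out each library were the alternatives. The sources do not say whether paired libraries of 1 time were made from different mice, so p-values measure only the spread between libraries, which may be technical. No 2 libraries of a group agreed within sampling noise (chi-square per degree of freedom 22 to 229). The fits were tested on simulated data.

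The 9 members and all lists were chosen with earlier results of these data known. Genes named from the 6 lists are the other proteases, up to 4 tested genes per list with the smallest p, and Kit, Gata1, Hdc and Fcer1g. Further list genes (among them Gab2, Rabgef1, Alox5ap, Rab27b, Csf2rb, Csf2rb2, Itgb7, Hrh4, Lyn, Syk, Mitf, Cd200r3, Mrgprb2 and Kitl) were named after their values were seen. Genes of the chymase locus are those within 200 kb with at least 1 CPM in either cell type, and like genes are the 10 with the highest correlation. The summed level of ILC3 markers is not reported here.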

Additional observations from a re-analysis of the deposited data

Results flagged for a closer look

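Each member was checked in each cell type for a library set far apart from the others (17 checks, 3 values found). The limit used gives about 1 in 20 by chance for normally distributed values. CPM with many 0 counts are not such values, so the 3 are not read against chance. All 3 are in ILC2 libraries. Cpa3 was at 19.2 CPM in the ILC2 library of ZT16, while the other 6 ILC2 libraries had at most 6.52 CPM. Gata2 was at 13.5 CPM in the same ZT16 library, while the other ILC2 libraries had at most 3.38 CPM. Mcpt8 was at 0.111 CPM in the second ZT23 ILC2 library, which is 2 reads, while the others had 0 reads. A library that alone has any reads is always found by this check. The ZT16 ILC2 library also had the highest Mcpt1 (282 CPM) and Mcpt2 (115 CPM) of the ILC2 libraries, though not far enough apart for the same check, and its Mcpt8 and Cma1 counts were 0.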

How the results depend on the processing

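The counts of calls over time and between cell types, and the log2 fold changes of members between ILC3 and ILC2, were recomputed under the alternatives. Those log2 fold changes stayed above 0, from which nothing is read. The members were chosen as higher in ILC3, and for each of them every ILC3 library lay above every ILC2 library. Correlations were recomputed only without the 2 farthest libraries. The median over all genes for ZT16 against ZT4 in ILC3 was −0.04, and was 0.06 with library size alone and 0.08 without the second ZT4 ILC3 library. DESeq2 called 2 of the 9 members over time in ILC2 (Gata2 and Cpa3), where edgeR called 0, and the cause was not tested. Among the genes to which it gave an adjusted p, DESeq2 called 22 of 4348 over time in ILC3, 24 of 15409 over time in ILC2 and 2 of 17829 for cell type by time. In ILC3 it called 2 of 3311 for ZT16 against ZT4 and 19 of 11607 for ZT23 against ZT10. Each of these counts was 0 by edgeR. Only 3 of the 9 members had a DESeq2 adjusted p over time in ILC3, and 2 for ZT16 against ZT4. Without the first ZT23 ILC3 library edgeR called 3 genes over time in ILC3, none of them a member, and without the filter 1 for ZT23 against ZT10. Scaling by library size alone moved the median log2 fold change of all genes between ILC3 and ILC2 to 0.26, beside 0.11, and the split of calls to 2981 higher and 1315 lower, beside 2318 and 1839. The 66 tested list genes then had 29 higher and 10 lower, and over all alternatives 19 to 29 were higher and 9 to 12 lower.

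Between ILC3 and ILC2, with no test, leaving out 1 library at a time gave fitted log2 fold changes of 3.24 to 4.62 for Mcpt1, 3.54 to 5.49 for Mcpt2 and 4.13 to 4.96 for Cpa3. The other members had ILC2 libraries at 0, so ratios of summed scaled counts, a choice made after seeing the data, stand in their place. They were 19.3 to 36.0 for Mcpt4 (25.1 with all libraries), 9.39 to 16.3 for Fcer1a (12.1), 25.1 to 50.3 for Ms4a2 (32.5, the highest without the second ZT23 ILC2 library), 16.0 to 76.3 for Gata2 (20.5) and 704 to 965 for Mcpt8 (913), where leaving out the second ZT23 ILC2 library left 0 ILC2 reads and no ratio. The highest Gata2 ratio was the one without the ZT16 ILC2 library, as it was on this scale for Mcpt1 (18.4, beside 10.7), Mcpt2 (21.9, beside 13.3) and Cpa3 (32.5, beside 18).

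Replicate numbers were fitted as a block within each cell type. The deviations of same-numbered libraries correlated at 0.449 for ZT4 with ZT23 in ILC3, at −0.128 to 0.163 for the other pairs of times in ILC3 and at −0.022 to 0.0996 in ILC2. As not every pair was over 0.1, the numbers were not taken to pair the libraries. With the block 0 members were called over time in ILC3 or in ILC2, 24 list genes were higher and 10 lower in ILC3, and 3872 of 15339 genes were called between ILC3 and ILC2, beside 4157. The shallowest library, the first at ZT10 in ILC2, had 4016298 reads, which limits what can be seen of Ms4a2, Mcpt8 and Cma1 in that library. These genes also had 0 reads in the second ZT10 ILC2 library, which had 18538315 reads.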
